A study of Mus musculus with 12 samples.

Results

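Transcripts of 9 genes for the uptake of apoptotic cells and lipids were followed in macrophages of the mouse mammary ducts through the reproductive cycle. They were Gas6, Mertk, Axl, Trem2, Stab1, Cd36, Scarb1, Msr1 and Lrp1. The genes were taken by symbol, matched through Entrez gene identifiers, from a count table of 27179 genes. All 9 were in the table and all passed the low-count filter, which left 12672 genes for testing. The genes share a function and were chosen by their levels in pregnant and virgin libraries, where Trem2, Cd36 and Lrp1 were called lower. The values of all 9 genes in that comparison are therefore a description, and no p-value is given for them there.

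The macrophages came from mammary glands of female C57BL/6 mice at 4 stages: virgin, day 16.5 of pregnancy, lactating, and 1 month post weaning. There were 3 libraries per stage, labelled biological replicates, and 12 libraries in total. No genotype, transgene or agent is named for any stage. The labels used here give no ages, day of lactation, number of litters or sorting gates. Each library was made from 2000 sorted cells with a full-length cDNA kit, and all were sequenced in 1 run. Whether a library held 1 mouse or a pool is unknown here, so the p-values measure the spread between these samples.

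Macrophages remove dying cells by binding phosphatidylserine, a lipid that apoptotic cells expose on their surface. Some receptors bind it directly, as Stab1 does. The kinases Mertk and Axl reach it through the bridging protein Gas6. Scavenger and endocytic receptors such as Cd36, Msr1 and Lrp1 take up modified lipoproteins and cell debris, and Trem2 senses lipids and lipoproteins. In the mammary gland, macrophages line the ducts and alveoli, and the milk-producing epithelium dies in large numbers after weaning.

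RefSeq promoters (GRCm38.p6) were available for 7 of the 9 genes. Those of the 3 genes called lower in pregnant than in virgin mice are shown. Gas6 also had its lowest mean in pregnancy, and its window is not shown. Each run is the 250 bases upstream of the transcription start, written 5′ to 3′ on the gene's own strand. Capitals mark matches, on either strand, to any of 7 motifs.
Trem2 (chr17:48346151-48346400, forward strand): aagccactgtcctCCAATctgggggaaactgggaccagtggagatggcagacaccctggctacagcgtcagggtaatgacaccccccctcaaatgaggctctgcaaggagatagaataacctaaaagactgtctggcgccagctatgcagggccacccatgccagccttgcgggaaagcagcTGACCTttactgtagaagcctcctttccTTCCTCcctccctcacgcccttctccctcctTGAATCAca
Cd36 (chr5:17835897-17836146, reverse strand): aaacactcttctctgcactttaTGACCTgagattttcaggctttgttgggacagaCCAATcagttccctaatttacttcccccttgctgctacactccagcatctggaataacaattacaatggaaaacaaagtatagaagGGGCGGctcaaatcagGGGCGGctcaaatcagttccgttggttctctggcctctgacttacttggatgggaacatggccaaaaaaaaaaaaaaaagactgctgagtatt
Lrp1 (chr10:127621149-127621398, reverse strand): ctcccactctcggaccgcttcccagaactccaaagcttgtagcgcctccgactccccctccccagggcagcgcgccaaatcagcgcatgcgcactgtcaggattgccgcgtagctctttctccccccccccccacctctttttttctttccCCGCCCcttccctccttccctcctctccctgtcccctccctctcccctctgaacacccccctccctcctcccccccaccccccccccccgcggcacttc
The motifs searched were the AP-1-like pattern TGANTCA, in which N is any base, the PU.1 core GAGGAA and the nuclear receptor half-site AGGTCA. The others were the E-box CACGTG, the GC box GGGCGG, the TATA box TATAAA and the CCAAT box CCAAT. Among 32817 promoter windows of this length, the AP-1-like pattern was in 6.75%, the PU.1 core in 23.3%, the half-site in 14.0% and the E-box in 6.02%. The GC box was in 32.7%, the TATA box in 12.4% and the CCAAT box in 33.8%. The Trem2 window held a match to the AP-1-like pattern, TGAATCA, beginning 9 bases before the start. It also held a PU.1 core, a half-site and a CCAAT box. The Cd36 window, whose start lies inside the annotated span of the gene, held a half-site, a CCAAT box and a pair of GC boxes. The bases just after the window were found in an annotated transcript for Trem2 and Lrp1, but not for Cd36. The Cd36 start is therefore less certain. The Lrp1 window held a single GC box. No motif of the 7 was in all 3 windows. The GC content was 56% for Trem2, 43.2% for Cd36 and 67.2% for Lrp1, against a median of 52.4% over all windows. These matches describe letters only, since binding was not measured.

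Levels are given in CPM, counts relative to the library total, scaled between libraries by TMM, as the mean ± SD over n = 3 libraries. Log2 fold changes carry their standard error. A gene was called changed where the Benjamini-Hochberg adjusted p of edgeR's quasi-likelihood test, over all genes tested, was under 0.05. In bulk RNA from sorted cells, fewer cells of a kind and less RNA per cell cannot be told apart. Library totals ran from 6926273 to 21204704 counts, and 10178 to 13790 genes had counts. Transcripts of the 12 macrophage identity genes took 4.32 to 12.2% of each library. Most of these counts were of Cd74 at every stage, so the share is no measure of purity. Summed over the virgin libraries, Cd74 had 2320586 counts, Csf1r 36899 and Adgre1 25704. Lactating replicate 3 stood apart. Milk protein genes made up 7.33% of it, where replicates 1 and 2 of that stage had 0.18 and 0.170%. It also held the lowest share of the 12 macrophage identity genes. Endothelial markers, at 349 CPM in sum there, were at 2.08 and 21.6 CPM in replicates 1 and 2. The members' lactating values that it moved most are given with and without it.

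The 9 genes fell into those with flat levels and those that differed widely by stage. Between the stages with the highest and the lowest mean, the ratio was 1.21 for Stab1, 1.34 for Axl and 1.36 for Scarb1. It was 4.79 for Msr1, 11.7 for Lrp1, 13.5 for Cd36, 18.2 for Mertk, 19.9 for Trem2 and 29.5 for Gas6. The lowest mean was in pregnancy for Gas6, Trem2, Cd36 and Lrp1, and in lactation for Mertk, Stab1 and Msr1.

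**Figure D1:**
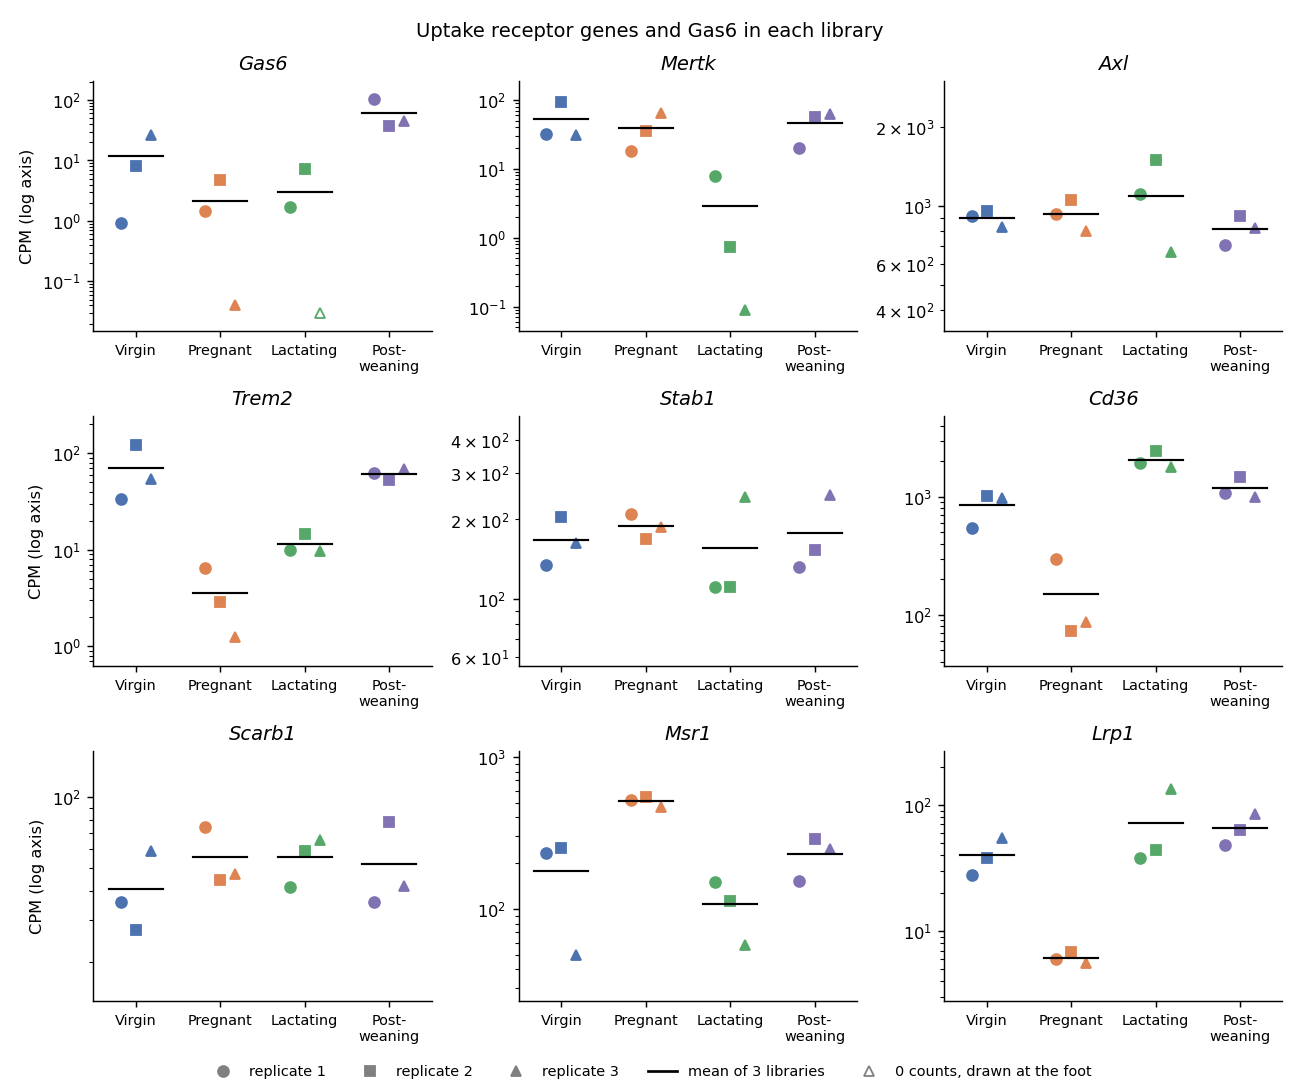
Level of each of the 9 genes in every library, in CPM on log axes that differ between panels, at the 4 stages; symbols are libraries, horizontal lines stage means of 3, and the open symbol at the foot a library with 0 counts. Cd36 runs from 73.8 CPM in a pregnant library to 2426 CPM in a lactating library, while Axl stays between 665 and 1495 CPM.

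Per kilobase of gene length, which allows levels of different genes to be compared, Cd36 was the most abundant of the 9 in virgin, lactating and post-weaning libraries. It stood at 217 ± 67.2, 523 ± 84.3 and 300.1 ± 65.1 CPM per kb at these stages. In pregnancy Axl led with 183 ± 24.7 CPM per kb, followed by Msr1 with 129 ± 9.92 and Cd36 with 38.7 ± 31.7 CPM per kb. The means of Axl (177 ± 12.85 CPM per kb) and Cd36 in virgin mice differed by less than 1 SD of Cd36. Trem2 ranked in position 3 in virgin mice, at 64.2 ± 43.0 CPM per kb, and in position 7 in pregnancy, at 3.23 ± 2.45 CPM per kb. Lrp1, the longest transcript of the set, was the least abundant per kb in virgin, pregnant and post-weaning mice, and Mertk was in lactation, at 0.808 ± 1.204 CPM per kb.

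**Figure D2:**
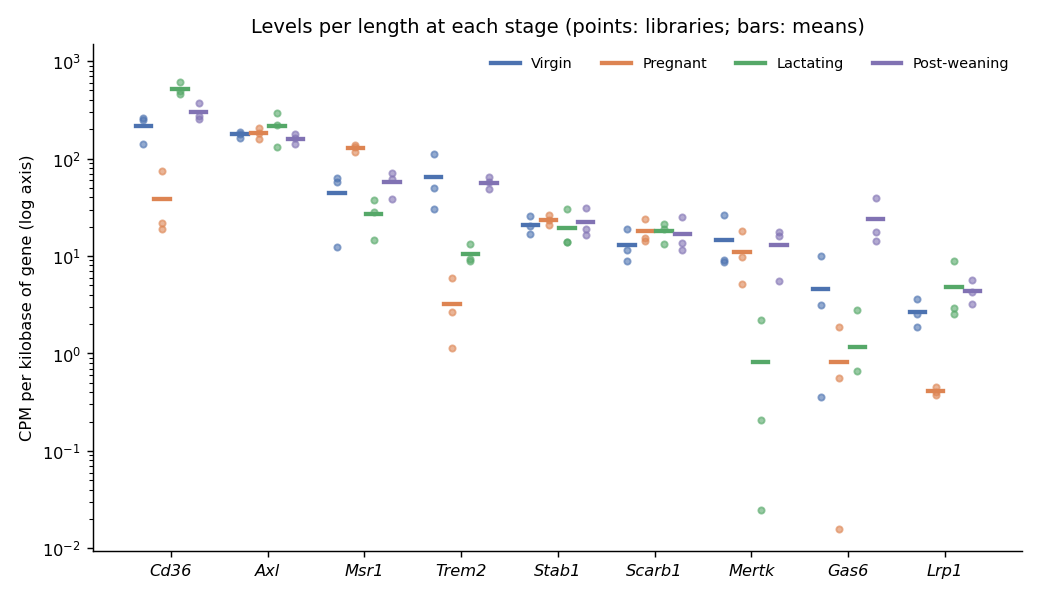
Level of each gene per kilobase of gene length on a log axis; points are libraries and bars stage means, coloured by stage, and libraries with 0 counts are not drawn (Gas6 in Lactating replicate 3). Cd36 is at the top at every stage except pregnancy, where Axl and Msr1 lie above it.

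Gas6 encodes the bridging ligand that links phosphatidylserine to the TAM receptor kinases. It lies at chr8:13465374-13494535 (GRCm38.p6, Entrez 14456). Its levels were 0.918, 8.16 and 26.2 CPM in the virgin, 1.45, 4.82 and 0.0414 CPM in the pregnant and 1.73, 7.31 and 0 CPM in the lactating libraries. The post-weaning libraries had 103, 37.0 and 45.6 CPM. Every post-weaning library was above every other library, and the libraries of the other stages overlapped. The pregnant library at 0.0414 CPM held 1 count, and the lactating library at 0 allows a level of up to 0.263 CPM (3 counts, counting error only). The post-weaning mean of 61.9 ± 35.9 CPM compared with 11.8 ± 13.04 CPM in virgin mice, a log2 fold change of 2.39 ± 1.54 (edgeR, adjusted p = 1). Against pregnancy the log2 fold change was 4.91 ± 1.74 (adjusted p = 0.322), and against lactation it was 4.39 ± 1.71 (adjusted p = 0.259). None of these passed the test, and the comparison with pregnancy reuses the pregnant libraries that chose the set. DESeq2 called the difference from pregnancy (adjusted p = 0.0206) and that from lactation (adjusted p = 0.0338), and an edgeR fit to only the 6 libraries compared also called that from pregnancy (5.01, adjusted p = 0.0367). Without Lactating replicate 3, the lactating mean was 4.52 in place of 3.01 CPM.

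Fibroblasts also express Gas6. Of 7 fibroblast markers, 6 or 7 had counts in each virgin library, 2 or 3 in each pregnant, 0 to 3 in each lactating and 6 in each post-weaning library. Their summed level was 25.7 to 376 CPM in virgin, 2.34 to 6.58 CPM in pregnant, 0 to 21.8 CPM in lactating and 39.3 to 160 CPM in post-weaning libraries. Col1a1, Col1a2, Pdgfra and Lum had 0 counts in all lactating libraries. Summed over that stage, Col3a1 had 1, Dcn 25 and Dpt 246 counts. Dpt was highest there, with 58 counts in virgin, 2 in pregnant and 5 in post-weaning libraries. The virgin library with the highest fibroblast sum, replicate 2, had 8.16 CPM of Gas6, below the 26.2 CPM of replicate 3. Lactating replicate 2, with 0 fibroblast counts, had 7.31 CPM of Gas6. The 8 markers of luminal epithelium summed to 155, 97.1 and 824 CPM in virgin and 880, 522 and 217 CPM in post-weaning libraries. At both stages the library with the most Gas6 had the highest sum. The sums were 315, 237 and 225 CPM in pregnant and 90.8, 131 and 264 CPM in lactating libraries, where this did not hold. The part of fibroblast or epithelial RNA in the Gas6 levels was not tested. An exon of Gas6 overlaps Tmem255b on the opposite strand by 34 bases, and whether the counting used strand is unknown here, so reads there cannot be told apart.

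Mertk and Axl encode receptor kinases of the TAM family, which bind Gas6 and drive the engulfment of apoptotic cells. Mertk lies at chr2:128698915-128803162 (Entrez 17289) and Axl at chr7:25756500-25788924 (Entrez 26362). Mertk had 32.02, 93.7 and 30.7 CPM in the virgin, 18.3, 34.9 and 64.7 CPM in the pregnant and 19.8, 56.7 and 63.3 CPM in the post-weaning libraries. In the lactating libraries it had 7.80, 0.731 and 0.0878 CPM, from 45, 4 and 1 counts. All lactating libraries were below all other libraries, while the other 3 stages overlapped. The log2 fold change of lactating against virgin mice was -4.22 ± 1.16 (edgeR, adjusted p = 0.103) and against pregnant mice -3.81 ± 1.15 (adjusted p = 0.0958). Post-weaning mice were higher than lactating mice by 4.06 ± 1.16 on the log2 scale (adjusted p = 0.135).

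None of these Mertk differences passed the edgeR test, and the call turned on the lactating libraries. The comparison with pregnant mice reuses the libraries that chose the set. Without Lactating replicate 1, which held most of the lactating counts, the log2 fold changes were -7.24 (adjusted p = 0.0117), -6.87 (adjusted p = 0.0100) and 7.09 (adjusted p = 0.0191) in the same order. Without Lactating replicate 3 they were -3.64 (adjusted p = 0.0755), -3.25 (adjusted p = 0.0864) and 3.496 (adjusted p = 0.103). DESeq2 called all 3 on the full data, with adjusted p = 0.000974, 0.00330 and 0.00223.

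Axl was high and flat. It had 915, 957 and 829 CPM in virgin, 928, 1055 and 804 CPM in pregnant, 1114, 1495 and 665 CPM in lactating, and 710, 914 and 822 CPM in post-weaning libraries. The libraries of all stages overlapped, and both the highest and the lowest were lactating. The widest difference of Axl outside the comparison of pregnant and virgin mice was between post-weaning and lactating mice, with a log2 fold change of -0.42 (95% interval -0.99 to 0.15, adjusted p = 0.487). Without Lactating replicate 3, the lowest Axl library, the lactating mean was 1304 in place of 1091 CPM and this log2 fold change -0.61 (adjusted p = 0.105).

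Trem2 encodes a receptor for lipids and apoptotic cells that signals through the adaptor encoded by Tyrobp, and lies at chr17:48346401-48352276 (Entrez 83433). The virgin libraries held 33.4, 123 and 53.7 CPM of it, the pregnant ones 6.45, 2.87 and 1.24 CPM. The lactating libraries had 10.05, 14.4 and 9.65 CPM, and the post-weaning libraries 62.1, 53.2 and 69.7 CPM. The pregnant libraries were the lowest and the lactating libraries came next, with no overlap between the 2 stages or with the others. Virgin and post-weaning libraries overlapped. The pregnant to virgin log2 difference that brought Trem2 into the set was -4.33 ± 0.66.

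Post-weaning Trem2 rose to 61.7 ± 8.21 CPM from 3.52 ± 2.66 CPM in pregnancy, a log2 fold change of 4.15 ± 0.65 (edgeR, adjusted p = 0.0184). This comparison reuses the pregnant libraries that chose the gene, so it is no separate support. The call was lost without Pregnant replicate 2 (adjusted p = 0.132) or 3 (adjusted p = 0.0800), and without Post-weaning replicate 1 (adjusted p = 0.0736), 2 (adjusted p = 0.0658) or 3 (adjusted p = 0.0778). Lactating mice, at 11.4 ± 2.65 CPM, were below virgin mice, at 69.9 ± 46.7 CPM. That log2 difference of -2.62 ± 0.61 did not pass (adjusted p = 0.0520). It passed without Pregnant replicate 1 (adjusted p = 0.0423) or 3 (adjusted p = 0.0384), libraries of neither stage compared, and also with no low-count filter (adjusted p = 0.0411) or a stricter one (adjusted p = 0.0438). DESeq2 called it too (adjusted p = 0.000482). The differences between post-weaning and lactating mice (2.44 ± 0.60, adjusted p = 0.0930) and between lactating and pregnant mice (1.71 ± 0.60, adjusted p = 0.151) did not pass the edgeR test. DESeq2 called both, with adjusted p = 0.00191 and 0.0481. Against virgin mice, post-weaning Trem2 had a log2 difference of -0.18 (95% interval -1.42 to 1.06, adjusted p = 1).

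The summed level of markers of stromal and perivascular macrophages was higher at the same stages as Trem2, but not every marker was. The sum over 8 genes was 67.8 to 130.05 CPM in virgin, 11.01 to 19.2 CPM in pregnant, 0 to 26.9 CPM in lactating and 142 to 188 CPM in post-weaning libraries. Between 2 and 5 of the 8 had counts in each virgin library, 4 or 5 in each pregnant, 0 to 3 in each lactating and 2 to 4 in each post-weaning library. Summed over the 3 libraries of a stage, Mrc1, the mannose receptor gene, had 3629 and 5120 counts in virgin and post-weaning mice, and 166 and 178 counts in pregnant and lactating mice. Cbr2 (73 against 219 counts), Timd4 (7 against 139) and Fcna (21 against 85) had more counts in pregnant than in virgin mice. Lyve1 had 0 counts in all 12 libraries and Cd163 had 2 counts in all. The 14 dissociation and stress genes, immediate early genes such as Fos and Jun, also moved with Trem2. They took 1.16 to 1.99% of counts in virgin, 0.441 to 0.623% in pregnant, 0.782 to 0.955% in lactating and 1.49 to 1.64% in post-weaning libraries. The part of either list in the levels of Trem2, Cd36 and Lrp1 was not tested.

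Stab1 encodes stabilin-1, a phosphatidylserine receptor that also clears modified lipoproteins, and lies at chr14:31139017-31168651 (Entrez 192187). It had 134, 204 and 163 CPM in virgin, 209.8, 168 and 187 CPM in pregnant, 111, 111 and 244 CPM in lactating, and 132, 153 and 248 CPM in post-weaning libraries. The libraries of all stages overlapped. Its stage means were 167 ± 35.0, 188 ± 20.8, 155 ± 76.8 and 177 ± 61.7 CPM. No Stab1 difference was called, and the 95% interval of lactating against pregnant mice ran from -1.02 to 0.46 on the log2 scale (edgeR, adjusted p = 0.728). Lactating replicate 3 was the highest of its stage, and without it the lactating mean was 111 CPM. Stab1 shares 112 exonic bases with Nt5dc2 on the opposite strand, where reads cannot be told apart.

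Cd36 encodes a class B scavenger receptor for oxidised lipoproteins, long-chain fatty acids and apoptotic cells, and lies at chr5:17781690-17888959 (Entrez 12491). The virgin libraries held 549, 1027 and 983 CPM of Cd36, the pregnant ones 295, 73.8 and 86.4 CPM. The lactating libraries reached 1949, 2426 and 1790.5 CPM, and the post-weaning libraries 1072, 1470.0 and 994 CPM. Pregnant libraries were below, and lactating libraries above, all others. Virgin and post-weaning libraries overlapped. The log2 difference of pregnant from virgin mice was -2.49 ± 0.49.

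Cd36 rose from 152 ± 124 CPM in pregnancy to 2055 ± 331 CPM in lactation, a log2 fold change of 3.76 ± 0.51 (edgeR, adjusted p = 0.00220). It was called in all 20 alternative settings, and without Lactating replicate 3 the log2 fold change was 3.80. The post-weaning level of 1178 ± 255 CPM was also above pregnancy, by 2.96 ± 0.50 on the log2 scale (adjusted p = 0.0231). That call was lost without Pregnant replicate 2 (adjusted p = 0.131) or 3 (adjusted p = 0.119) and without Post-weaning replicate 1 (adjusted p = 0.0774), 2 (adjusted p = 0.0869) or 3 (adjusted p = 0.0784). Both comparisons reuse the pregnant libraries that chose the gene. The comparisons without pregnant libraries were not called: lactating against virgin mice differed by 1.27 ± 0.47 (adjusted p = 0.208), with no overlap of libraries, and post-weaning against lactating mice by -0.80 ± 0.46 (adjusted p = 0.446).

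Adipocytes and milk-producing epithelium also express Cd36. Adipocyte markers summed to at most 8.70 CPM in any library, and Plin1 had 0 counts in all 12. The lactating library with 7.33% milk transcripts had 1790.5 CPM of Cd36, below the 1949 and 2426 CPM of the 2 lactating libraries with 0.18 and 0.170%. In pregnancy, the library with the highest milk share (1.43%, against 0.168 and 0.253%) also had the highest Cd36, 295 CPM against 73.8 and 86.4 CPM. The part of RNA from these cells in the Cd36 levels was not tested.

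Scarb1 encodes the class B receptor SR-BI, which takes up lipid from high-density lipoprotein, and lies at chr5:125277087-125341094 (Entrez 20778). It had 35.8, 27.3 and 58.8 CPM in virgin, 74.5, 44.6 and 47.2 CPM in pregnant, 41.4, 59.0 and 65.9 CPM in lactating, and 35.9, 78.3 and 42.0 CPM in post-weaning libraries. All stages overlapped. None of its comparisons was called, and for lactating against pregnant mice the 95% interval was -0.86 to 0.86 on the log2 scale (edgeR, adjusted p = 1).

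Msr1 encodes the class A scavenger receptor, which binds modified lipoproteins, and lies at chr8:39543232-39642750 (Entrez 20288). It was highest in pregnancy, with 524, 548 and 471 CPM, against 232, 253 and 49.6 CPM in virgin libraries. The lactating libraries had 151, 113 and 58.3 CPM, and the post-weaning libraries 153, 287 and 249 CPM. Pregnant libraries were above all others. Virgin libraries overlapped with lactating and post-weaning ones, which did not overlap each other. The log2 difference of pregnant from virgin mice was 1.53 ± 0.52. Lactating Msr1 was lower than pregnant Msr1, at 107 ± 46.5 against 514 ± 39.7 CPM, a log2 fold change of -2.26 ± 0.53 (edgeR, adjusted p = 0.0363). Comparisons of Msr1 with pregnancy reuse the pregnant libraries that chose the set, so they are no separate support.

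This Msr1 call did not hold when single libraries were left out. The adjusted p was 0.102, 0.117 and 0.0851 without Pregnant replicate 1, 2 and 3. It was 0.0882 and 0.0617 without Lactating replicate 2 and 3, and 0.0586 and 0.0596 without Post-weaning replicate 2 and 3. Without Lactating replicate 3, the lactating mean was 132 in place of 107 CPM and the log2 fold change -2.01. The post-weaning level differed from pregnancy by -1.16 ± 0.51 (adjusted p = 0.461) and from lactation by 1.10 ± 0.51 (adjusted p = 0.340). Neither was called, although an edgeR fit to only the 6 libraries compared called the difference from pregnancy (-1.17, adjusted p = 0.0260).

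Lrp1 encodes a large endocytic receptor that takes up lipoproteins rich in apolipoprotein E and, through calreticulin, apoptotic cells. It lies at chr10:127538157-127621148 (Entrez 16971). Lrp1 stood at 27.8, 37.6 and 54.2 CPM in virgin mice and at only 6.00, 6.77 and 5.59 CPM in pregnancy. The lactating libraries had 37.8, 43.7 and 134 CPM, and the post-weaning libraries 48.1, 63.2 and 84.2 CPM. The 3 pregnant libraries lay close together below all others, and the other 3 stages overlapped. The log2 difference of pregnant from virgin mice was -2.70 ± 0.50.

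Lrp1 rose between pregnancy and lactation, with a log2 fold change of 3.55 ± 0.52 (edgeR, adjusted p = 0.00334), and was called in all 20 alternative settings. Lactating replicate 3 held the highest level. Without it the lactating mean was 40.7 in place of 71.7 CPM and the log2 fold change 2.68 (adjusted p = 0.00101). Post-weaning Lrp1, at 65.2 ± 18.1 CPM, was above the pregnant level of 6.12 ± 0.598 CPM by 3.41 ± 0.52 (adjusted p = 0.0165). The call was lost without Pregnant replicate 1 (adjusted p = 0.0673), 2 (adjusted p = 0.124) or 3 (adjusted p = 0.0996) and without Post-weaning replicate 2 (adjusted p = 0.0637) or 3 (adjusted p = 0.0778). limma-voom gave adjusted p = 0.0551. As for Cd36, both comparisons reuse the pregnant libraries. Lactating and virgin mice differed by 0.85 ± 0.47 (adjusted p = 0.387), and by -0.02 without Lactating replicate 3. Fibroblasts and endothelium also express Lrp1. The library with 134 CPM of Lrp1 had 21.8 CPM of fibroblast and 349 CPM of endothelial markers. Lactating replicates 1 and 2 had 37.8 and 43.7 CPM of Lrp1. Their fibroblast markers were at 4.16 and 0 CPM and their endothelial markers at 2.08 and 21.6 CPM. In pregnancy, where Lrp1 was lowest, fibroblast markers were at 2.34 to 6.58 CPM and endothelial markers at 3.31 to 12.7 CPM, against 25.7 to 376 and 18.1 to 76.1 CPM in virgin libraries. The part of these cells in the Lrp1 levels was not tested.

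**Figure D3:**
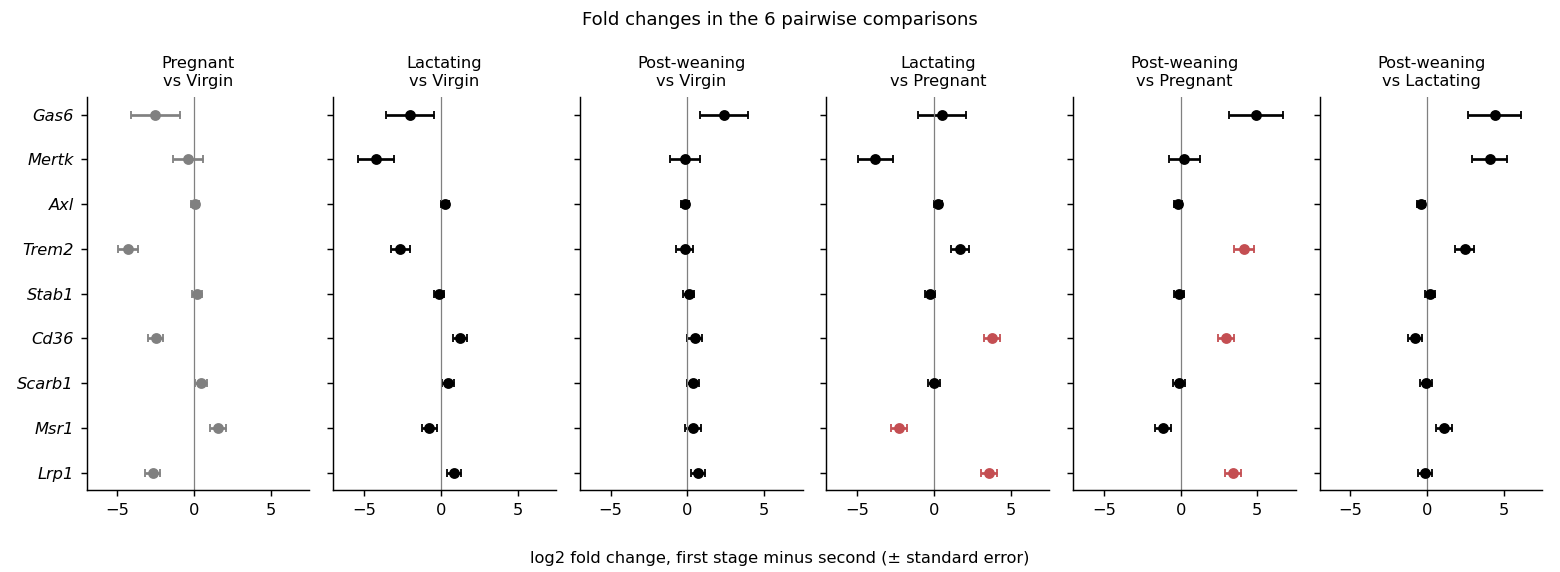
Log2 fold changes of the 9 genes (first stage minus second) in the 6 comparisons, with bars of 1 standard error; red marks genes called by edgeR, black genes not called, and grey the comparison of pregnant and virgin mice, shown without a test. Cd36 and Lrp1 are red in both comparisons with pregnancy, Trem2 in post-weaning against pregnancy and Msr1 in lactating against pregnancy.

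Counted over the 9 genes, 0 were called higher and 3 lower in pregnant against virgin mice, where 0.442% and 0.876% of all tested genes were called in those directions. This count was known when the set was chosen, and nothing is read from it. In lactating against pregnant mice 2 were called higher (Cd36 and Lrp1) and 1 lower (Msr1), against 2.65% and 1.2% of all genes. In post-weaning against pregnant mice 3 were called higher (Trem2, Cd36 and Lrp1) and 0 lower, against 0.576% and 0.142%. The comparisons with pregnancy share libraries with the one that chose the set.

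None of the 9 was called in the comparisons without pregnant libraries. In lactating against virgin mice, 1.04% of all genes were called higher and 0.9% lower, and 3 of the 9 had an unadjusted edgeR p under 0.05, as did 16.8% of all genes. DESeq2 called 2 of the 9 there (Mertk and Trem2), among 1173 genes in all, and limma-voom 0. In post-weaning against lactating mice, 0.458% were called higher and 0.466% lower, and 3 of the 9 had an unadjusted p under 0.05, as did 15.1% of all genes. DESeq2 called 3 of the 9 (Gas6, Mertk and Trem2), among 919 genes in all, and limma-voom 0. In post-weaning against virgin mice, 0% were called in either direction by edgeR, although 765 genes had an unadjusted p under 0.05, DESeq2 called 125 and limma-voom 11. Of the 9, 0 had an unadjusted p under 0.05, and neither other tool called any.

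Libraries of the stages compared did not overlap for 4 of the 9 genes in pregnant against virgin mice, where this held for 24.2% of all genes. For lactating against virgin mice it was 3 of the 9 (background 17.3%), and for post-weaning against virgin mice 1 of the 9, Gas6 (background 15.4%). It was 5 of the 9 for lactating against pregnant (background 26.6%), 5 for post-weaning against pregnant (background 27.3%) and 5 for post-weaning against lactating mice (background 21.6%).

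Other genes of the uptake pathway were taken from 6 lists of 86 genes, of which 78 were tested and 8 (Havcr1, Adgrb1, Itgb3, Megf10, Marco, Scarf1, Cd163 and Vldlr) had too few counts. Without the 9 genes above, 69 were tested. Of these, 1 was called higher and 0 lower in pregnant against virgin mice, with a median log2 fold change of -0.07 against 0.03 over all genes. In lactating against virgin mice 2 were higher and 3 lower (median 0.06 against -0.06 over all genes), and in post-weaning against virgin mice edgeR called none, DESeq2 5 and limma-voom 2 (edgeR median 0.17 against 0.02). In lactating against pregnant mice 4 were higher and 2 lower (median -0.01 against -0.14). In post-weaning against pregnant mice 1 was higher (median 0.25 against 0.01), and in post-weaning against lactating mice 2 were higher (median 0.11 against 0.08).

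Among the bridging molecules, Anxa5, which binds phosphatidylserine, rose from 581 ± 69.9 CPM in pregnancy to 998 ± 73.2 CPM in lactation (log2 fold change 0.78 ± 0.18, edgeR adjusted p = 0.0301). Among the phosphatidylserine receptors, Cd300lf was lowest in lactation, with 28.4, 42.2 and 47.0 CPM. All lactating libraries were below the others, which held 81.4 to 184 CPM. Its log2 fold change was -2.03 ± 0.27 in lactating against virgin mice (adjusted p = 0.00410) and -1.32 ± 0.26 against pregnant mice (adjusted p = 0.0163). Post-weaning Cd300lf was again above lactation (1.54 ± 0.26, adjusted p = 0.0227).

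Among the scavenger and lipoprotein receptors, Colec12 had 0 counts in all virgin libraries, which allows up to 0.344 CPM in the shallowest of them. It had 15.8 ± 9.93 CPM in pregnant (edgeR, adjusted p = 0.00702) and 5.88 ± 3.45 CPM in lactating libraries (adjusted p = 0.00850). The post-weaning libraries had 13.2 ± 3.59 CPM of Colec12. That difference from virgin mice was not called by edgeR. Its log2 fold change of 10.2 is taken against 0 virgin counts, so its size was not measured. Cx3cr1, the fractalkine receptor gene on the list of receptors for signals from dying cells, was lower in lactating than in virgin mice (-0.90 ± 0.20, adjusted p = 0.0466). It was higher in post-weaning than in lactating mice (1.03 ± 0.20, adjusted p = 0.0396).

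Of the engulfment signalling genes, Rac2, a small GTPase of the actin machinery, rose from 86.7 ± 27.5 to 280.4 ± 25.8 CPM between pregnancy and lactation (1.69 ± 0.26, edgeR adjusted p = 0.00453). The kinase gene Syk rose from 82.0 ± 20.8 to 216 ± 83.0 CPM (1.39 ± 0.29, adjusted p = 0.0191), with a log2 fold change of 1.01 without Lactating replicate 3. Of the genes for lipid handling after uptake, Pparg encodes a nuclear receptor for fatty acids. It had 3.45, 2.41 and 8.65 CPM in pregnant and 63.9, 48.2 and 87.7 CPM in lactating libraries. It rose by 3.76 ± 0.51 on the log2 scale (adjusted p = 0.00208), and its post-weaning level of 37.4 ± 1.17 CPM was also above pregnancy (2.93 ± 0.49, adjusted p = 0.0231). Nr1h3, which encodes the oxysterol receptor LXRα, went the other way, from 64.7 ± 5.89 CPM in pregnancy to 7.04 ± 5.24 CPM in lactation (-3.21 ± 0.75, adjusted p = 0.0351). Abcg1, a cholesterol exporter gene, was lower in lactating than in virgin mice (-1.999 ± 0.429, adjusted p = 0.0389).

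Leaving out single libraries removed some of these calls. The highest adjusted p was 0.119 for Anxa5, 0.107 for Syk and 0.109 for Nr1h3, each without Pregnant replicate 2, and 0.0658 for Cd300lf against pregnancy without Pregnant replicate 3. Of the 12 fits that each left out a library, 3 kept the Abcg1 call and 1 kept the Cx3cr1 call against virgin mice, with adjusted p of up to 0.114 (without Virgin replicate 2) and 0.119 (without Virgin replicate 3). That Cx3cr1 call was also lost with no low-count filter (adjusted p = 0.0632), and both Cx3cr1 calls with the replicate number as a block (adjusted p = 0.0813 against virgin mice and 0.0803 for post-weaning against lactating mice). For the comparisons with post-weaning mice it was 0.131 for Pparg without Pregnant replicate 2, 0.165 for Cx3cr1 without Post-weaning replicate 3 (3 of the 12 fits kept it) and 0.113 for Cd300lf without Post-weaning replicate 2. limma-voom did not call Abcg1 (adjusted p = 0.0795) or post-weaning Pparg (adjusted p = 0.0607). Colec12, Rac2, Pparg in lactation and Cd300lf against virgin mice were called whichever library was left out. An edgeR fit to only the 6 libraries compared lost calls too. In lactating against virgin mice these included Colec12 (adjusted p = 0.256), Cd300lf (0.148), Abcg1 (0.242) and Cx3cr1 (0.236). In lactating against pregnant mice that fit lost Anxa5 (adjusted p = 0.136), Cd300lf (0.109), Syk (0.107) and Nr1h3 (0.107). In post-weaning against lactating mice it lost Cd300lf (adjusted p = 0.145) and Cx3cr1 (0.169).

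**Figure D4:**
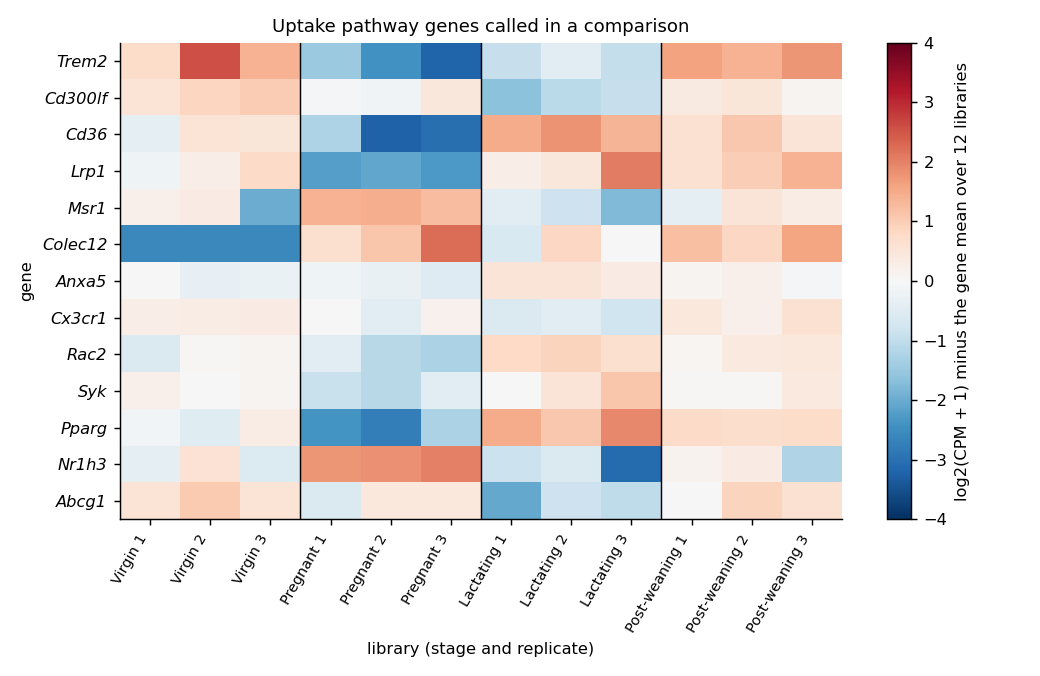
Levels of uptake pathway genes called by edgeR in a comparison, members included, as log2(CPM + 1) minus the gene's mean over the 12 libraries; rows are genes, columns libraries by stage, red above and blue below the mean. Trem2, Cd36, Lrp1 and Pparg are blue in all 3 pregnant libraries, where Msr1 and Nr1h3 are red, and Cd300lf is blue in all 3 lactating libraries.

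Over the 12 libraries, which share scaling and depth, the genes with the levels most like each member were named by the Pearson correlation of log2 CPM among 7165 or 7166 expressed genes, as a description. For Cd36 they were Cebpb (r = 0.98), Socs3 (r = 0.98) and Ckb (r = 0.97), and for Lrp1 they were Agpat3 (r = 0.96), Cxcl14 (r = 0.95) and Klf3 (r = 0.94). For Trem2 they were Osm (r = 0.94), Emp3 (r = 0.94) and Tagap (r = 0.93), and for Mertk they were Ift46 (r = 0.95), Tmcc1 (r = 0.94) and Nod1 (r = 0.93). Msr1 was most like Derl2 (r = 0.94), Dbf4 (r = 0.90) and P2rx4 (r = 0.90), and Axl most like Btbd1 (r = 0.91), Vwa5a (r = 0.88) and Ifi204 (r = 0.88). For Scarb1 they were Tbc1d15 (r = 0.90), Bpnt1 (r = 0.86) and Anapc7 (r = 0.85), for Gas6 Rabac1 (r = 0.85), Eri3 (r = 0.84) and Nisch (r = 0.83), and for Stab1 Psme3ip1 (r = 0.85), Snx4 (r = 0.85) and Tifab (r = 0.84). Among the 9 themselves, the closest pair was Cd36 and Lrp1 (r = 0.87), followed by Gas6 and Trem2 (r = 0.71).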

How the data were processed

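Ductal macrophage RNA was sequenced at 4 stages in 3 libraries each. Per the labels' protocols, it was isolated with the RNeasyPlus Mini kit and turned into cDNA by SMART-Seq v4, which adds no molecular identifiers, so PCR copies are counted as reads. The authors deposited raw, unnormalized read counts for each gene. The submitters' processing notes name featureCounts and mm10. Aligner, versions and strand setting: not given in the sources used here.

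Gene names and positions came from RefSeq (GRCm38.p6), which matched 25275 of 27179 genes (93.0%). Genes were filtered with filterByExpr by stage (12672 left), scaled by TMM and tested with edgeR 4.0.16 (R 4.3.3), in 1 robust quasi-likelihood fit of all 12 libraries with a mean per stage. The common biological coefficient of variation was 0.856. P-values were adjusted by the Benjamini-Hochberg method over all genes tested, and called under 0.05. Standard errors were derived from the F statistic, and 95% intervals from the fit's degrees of freedom. CPM were computed from TMM-scaled totals, and divided by the deposited gene length for comparison between genes. No 2 replicates had identical counts.

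Members, gene lists, tests and the naming rule were chosen with earlier results of these data known. The genes named were the 9 members, up to 3 called genes per pathway list and comparison with the smallest adjusted p, and for each member the 3 genes most correlated with it (mean log2 CPM of at least 3, prior count 2). A gene that this rule takes is not reported here. Alternatives were RLE size factors, TMM without milk, epithelial, ribosomal and mitochondrial genes, a minimum of 5 CPM in at least 3 libraries, no filter, a fit to the 6 libraries compared, the replicate number as a block, DESeq2 1.42.0, limma-voom (limma 3.58.1), and leaving out each library. The procedure was tested on simulated data.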

Additional observations from a re-analysis of the deposited data

How the results depend on the processing

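Counts of calls and fold changes were recomputed under 20 alternatives (19 for any difference between stages, which has no fit to 6 libraries); correlations, marker shares and overlaps of libraries were not. Cd36 and Lrp1 in lactating against pregnant mice were called in all 20; calls of single genes that single libraries removed stand beside them above. The counts of genes called are in the order pregnant, lactating and post-weaning against virgin, lactating and post-weaning against pregnant, and post-weaning against lactating, then any difference between stages. edgeR as described called 167, 246, 0, 488, 91, 117 and 424 genes. DESeq2 called 656, 1173, 125, 1465, 502, 919 and 1462. limma-voom called 298, 11, 167, 201 and 724 where its count moved by over 1.5 times, that is in all but the comparisons of lactating with virgin and with pregnant mice. A fit to the 6 libraries compared gave 0 for lactating against virgin, 1 for post-weaning against virgin, 147 for lactating against pregnant, 590 for post-weaning against pregnant and 3 for post-weaning against lactating mice.

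Same-numbered replicates showed no shared deviation: over 18 such pairs, deviations from the stage means correlated at -0.0800 to 0.0894, none over 0.1. This cannot show whether they were collected or processed together. With the replicate block, 100, 139, 0, 346, 35, 42 and 223 genes were called, and the calls of post-weaning Cd36 against pregnancy (adjusted p = 0.0568) and of Cx3cr1 in lactating against virgin (adjusted p = 0.0813) and post-weaning against lactating mice (adjusted p = 0.0803) were lost.

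Leaving out 1 library gave 40 to 438, 111 to 416, 0 to 10, 194 to 689, 1 to 308, 26 to 242 and 171 to 773 genes, in the same order. The highest count in each was without Lactating replicate 3. The lowest was without Pregnant replicate 2, except without Virgin replicate 1 for lactating against virgin and without Post-weaning replicate 2 for post-weaning against lactating mice; for post-weaning against virgin mice 11 fits gave 0.

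Of the 78 pathway genes tested, here with the 9 members, 4, 5, 0, 9, 4 and 2 were called as described. Over all 12672 genes these counts were 167, 246, 0, 488, 91 and 117. Members gave 3 of the 4 calls in pregnant against virgin mice, known when the set was chosen. They also gave 3 of the 4 in post-weaning against pregnant mice. DESeq2 called 13, 18, 5, 23, 12 and 13 pathway genes. limma-voom called 7, 2 and 4 in pregnant against virgin, post-weaning against virgin and post-weaning against lactating mice. The fit to 6 libraries gave 0, 5, 17 and 0 for lactating against virgin, lactating against pregnant, post-weaning against pregnant and post-weaning against lactating mice. Leaving out 1 library gave 1 to 10, 2 to 9, 0 to 1, 5 to 17, 0 to 8 and 0 to 6.

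Changes of sign occurred in differences that were not called, most of them near 0. Scarb1 in lactating against pregnant mice was -0.0496 with no filter, -0.0120 with the stricter filter and -0.0385 with the replicate block. Leaving out 1 library gave, in lactating against virgin mice, -0.0290 to 0.49 for Axl, -0.64 to 0.0706 for Stab1 and -0.0185 to 1.13 for Lrp1. In post-weaning against virgin mice it gave -0.45 to 0.57 for Mertk, -0.50 to 0.50 for Trem2, -0.23 to 0.26 for Stab1, -0.0599 to 0.72 for Scarb1 and -0.0775 to 0.71 for Msr1. In lactating against pregnant mice it gave -1.38 to 2.09 for Gas6, -0.0950 to 0.44 for Axl and -0.20 to 0.27 for Scarb1. In post-weaning against pregnant mice it gave -0.10 to 0.81 for Mertk, -0.40 to 0.0881 for Stab1 and -0.51 to 0.18 for Scarb1. In post-weaning against lactating mice it gave -0.12 to 0.74 for Stab1, -0.51 to 0.12 for Scarb1 and -0.41 to 0.74 for Lrp1. The cause of these changes was not tested. In lactating libraries Gas6 and Mertk had 0 to 45 counts, few for a fold change.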

Other observations

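Some genes of the lists not named above were looked at after their values were seen. Tyrobp, which encodes the adaptor of Trem2, had 1740 ± 122 CPM in virgin, 1955 ± 219 CPM in pregnant, 1888 ± 666 CPM in lactating and 1919 ± 165 CPM in post-weaning libraries, a flat level beside the wide range of Trem2. Apoe, a lipoprotein ligand of Trem2 and Lrp1, was among the most abundant transcripts at every stage, from 10778 to 29750 CPM over the 12 libraries, with the lowest in Lactating replicate 3. C1qa, an opsonin gene, had stage means of 1578 to 2198 CPM. None of the 3 was called in a comparison.

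Mfge8, which encodes a milk fat globule protein that bridges phosphatidylserine to integrins and is also made by mammary epithelium, had 639, 243 and 337 CPM in post-weaning libraries. It had 0.344, 12.4 and 75.9 CPM in virgin, 43.7, 11.6 and 8.65 CPM in pregnant, and 18.4, 7.31 and 424 CPM in lactating libraries. The high lactating value was in Lactating replicate 3, the library with 7.33% milk transcripts. Pros1, the other TAM ligand gene, had 114, 99.7 and 115 CPM in post-weaning libraries, above all libraries of the other stages. None of the differences of Mfge8 or Pros1 was called by edgeR.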
